A study of Mus musculus with 6 samples.

Results

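The genes described here encode the proteasome, the protease complex that degrades ubiquitin-tagged proteins, together with its activators and assembly factors. They were taken as every gene of the deposited mRNA table whose symbol is Psma, Psmb, Psmc, Psmd, Psme, Psmf or Psmg followed by a number, which gave 49 of 21774 genes. Those 49 genes have 84 transcripts in the table, and each gene was represented by the transcript with the highest mean over the 6 libraries. The samples were polyadenylated RNA from B cells of wild-type (WT) mouse lung, held back from a lung cell suspension on B220 microbeads, in 3 severe asthma and 3 control libraries. The severe asthma mice were given 10 μg of lipopolysaccharide (LPS) with 25 μg of house dust mite (HDM) into the trachea on days 0 to 2, and 25 μg of HDM without LPS on days 7 to 14. The control mice were given PBS by the same route. The labels name no age, sex or strain, and do not say whether each library came from its own animal, so each p-value reflects the spread over these libraries alone, part of which may be technical.

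The core of the proteasome, the 20S particle, is a stack of rings in which the outer alpha rings form the gate and the inner beta rings carry the proteolytic sites. The 19S particle caps the core, binds ubiquitin chains and unfolds the substrate with a ring of ATPases. Lymphocytes and cells exposed to interferon gamma also make the immunoproteasome, in which the catalytic subunits encoded by Psmb8, Psmb9 and Psmb10 take the places of those encoded by Psmb5, Psmb6 and Psmb7, and PA28, encoded by Psme1 and Psme2, opens the gate. The immunoproteasome is best known for cutting peptides that MHC class I molecules present to T cells.

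Most genes of the complex rose in severe asthma, by a modest amount. Of the 48 proteasome genes whose mean value reached 1, 34 rose and 0 fell at an adjusted p under 0.05, where 20.7% of the 15759 genes tested rose and 14.4% fell, 35.1% in all (limma on log2(value + 1), Benjamini-Hochberg adjustment over all genes tested). The median log2 fold change of the 48 genes was 0.35, against 0.06 over all genes tested, and the largest among the genes that passed was 0.69, for Psmd14. Values are the authors' library-size-adjusted read counts, called adjusted reads here. Summed over the 49 genes they came to 61265, 67082 and 63212 in severe asthma libraries 1 to 3, against 46151, 52174 and 50587 in control libraries 1 to 3, a ratio of means of 1.29. Over the kept transcripts of all genes of the table the totals were 17889100, 18444300 and 17914000 in severe asthma libraries 1 to 3. In control libraries 1 to 3 they were 16220100, 16638500 and 16176600, so all genes together were also higher in severe asthma. In RNA from a mixed preparation, fewer cells of a type and less RNA per cell cannot be told apart.

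Control library 1 stood apart from the other controls in holding the most endothelial and epithelial RNA and the lowest sum of B cell markers. The number of risen proteasome genes was 27 without control library 1, where 21.7% of all genes tested rose. Without control library 3 it was 23, where 15.2% of all genes tested rose. The count of risen genes depended most on 2 severe asthma libraries, on the scaling and on the filter. It was 17 without severe asthma library 2, where 10.0% of all genes tested rose, and 18 without severe asthma library 3 (10.3%). It was 17 when the libraries were scaled to equal totals (12.2%) and 13 with no filter on low values (6.03%), and 0 proteasome genes fell in any of these. With edgeR on the rebuilt reads 25 rose (16% of all genes) and with DESeq2 24 (17.1%). The 9 calls lost in edgeR, those of Psmb6, Psmd4, Psmd5, Psmd6, Psmd10, Psmd12, Psme2, Psme3 and Psmg3, were also lost with equal totals and held in 2 to 5 of the 13 alternatives run. Equal totals lowered the median of all genes by 0.145 on the log2 scale, to -0.08, and that of the proteasome genes to 0.20, so that the proteasome genes stood 0.29 above the median gene under either scaling.

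Of the 48 genes, 42 had all severe asthma libraries above all control libraries, against 31.6% of all genes tested, and 0 had all of them below, against 21.6%. All 48 log2 fold changes were above 0, against 55.8% of genes, although those of Psmd7, Psmd11 and Psme2b turned negative with equal totals. The changes of the genes that passed were small. The authors' deposited table of called genes holds 2977 genes that differed 2-fold or more in either direction, all at a q-value under 0.05, and has 0 proteasome genes. By the authors' log2 fold changes Psma8 (1.84) and Psmb11 (-3.11), both with values near 0, differed by more than 2-fold but missed that q-value. In the authors' deposited table of all transcripts, 18 of the 48 were higher at a q-value under 0.05, against 13.2% of genes.

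Sequence just around the start of transcription is shown for 3 genes of the immunoproteasome and PA28 and for 2 constitutive catalytic genes, chosen because each holds a match to a motif searched. The window of the other inducible catalytic gene, Psmb10, holds a match to none of the 4 motifs and is not shown, and Psmb7 was not matched. Each is 300 bases of RefSeq sequence on build GRCm38.p6, from 250 bases before the start to 50 after it, 5′ to 3′ on the gene's strand. The first 3 lie at chr17:34197945-34198244, plus strand (Psmb8), chr17:34187281-34187580, minus strand (Psmb9) and chr14:55578244-55578543, plus strand (Psme1), and the other 2 at chr14:54617946-54618245, minus strand (Psmb5) and chr11:70525107-70525406, plus strand (Psmb6). Capitals mark a match on either strand to a core motif: the gamma-activated site TTCNNNGAA in Psmb8, the CCAAT box in Psmb9, the interferon-stimulated response element in Psme1 (GAAA, any 2 bases, GAAA) and the antioxidant response element TGACNNNGC in Psmb5 and Psmb6.
Psmb8: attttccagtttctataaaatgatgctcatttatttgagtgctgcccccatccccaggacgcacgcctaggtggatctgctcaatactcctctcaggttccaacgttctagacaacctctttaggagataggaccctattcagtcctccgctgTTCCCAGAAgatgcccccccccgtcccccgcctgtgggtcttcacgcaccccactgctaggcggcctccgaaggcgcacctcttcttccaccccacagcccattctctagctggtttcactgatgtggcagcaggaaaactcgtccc
Psmb9: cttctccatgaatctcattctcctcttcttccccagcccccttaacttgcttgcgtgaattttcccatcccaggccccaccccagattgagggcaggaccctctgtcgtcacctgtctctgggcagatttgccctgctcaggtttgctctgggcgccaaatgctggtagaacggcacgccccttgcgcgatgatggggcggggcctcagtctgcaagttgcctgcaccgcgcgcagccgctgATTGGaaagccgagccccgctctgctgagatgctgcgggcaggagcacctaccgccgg
Psme1: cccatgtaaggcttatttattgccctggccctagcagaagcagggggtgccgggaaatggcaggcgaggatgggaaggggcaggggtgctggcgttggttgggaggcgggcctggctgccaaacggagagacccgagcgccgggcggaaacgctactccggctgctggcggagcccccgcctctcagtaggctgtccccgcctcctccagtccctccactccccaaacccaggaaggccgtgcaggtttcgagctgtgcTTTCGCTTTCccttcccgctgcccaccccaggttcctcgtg
Psmb5: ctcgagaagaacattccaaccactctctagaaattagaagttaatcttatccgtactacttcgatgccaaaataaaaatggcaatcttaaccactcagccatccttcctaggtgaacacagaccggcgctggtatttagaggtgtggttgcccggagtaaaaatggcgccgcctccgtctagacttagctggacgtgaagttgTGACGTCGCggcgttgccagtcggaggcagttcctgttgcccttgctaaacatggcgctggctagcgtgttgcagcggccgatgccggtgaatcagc
Psmb6: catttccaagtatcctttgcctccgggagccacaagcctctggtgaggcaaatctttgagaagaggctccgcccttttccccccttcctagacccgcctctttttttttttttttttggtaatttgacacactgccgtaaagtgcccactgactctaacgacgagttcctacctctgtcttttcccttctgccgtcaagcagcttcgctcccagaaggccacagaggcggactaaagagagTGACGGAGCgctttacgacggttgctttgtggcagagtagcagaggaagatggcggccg

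The gamma-activated site and the interferon-stimulated response element are known from interferon-responsive genes, and the antioxidant response element is bound by the NRF family, whose member NRF1, encoded by Nfe2l1, drives proteasome genes when proteolysis is short. RefSeq promoters were matched for 41 of the 49 genes, with 44 windows in all. The antioxidant response element core was in 6 of the 44 windows (13.6%), against 12.4% of all 32851 promoters in the table. The interferon-stimulated response element core was in 5 windows (11.4%), against 3.44% of all promoters, namely those of Psmb3, Psmd4, Psmd9, Psme1 and Psmg4. The gamma-activated site core was in 3 windows (6.82%), against 8.30%, and the CCAAT box in 14 (31.8%), against 37.4%. The motifs do not overlap each other in the sequences shown, and a match is a run of letters, not a measured binding site.

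All 3 inducible catalytic subunits rose, and 2 of the 3 constitutive ones, of which Psmb6 did so in only 3 of the 13 alternatives. Of all genes tested, 20.7% rose. Psmb8 encodes the inducible chymotrypsin-like subunit and lies in the MHC class II region at chr17:34198195-34201454. It had 3271, 3659 and 3346 adjusted reads in severe asthma libraries 1 to 3, against 2051, 2488 and 2348 in control libraries 1 to 3. The groups did not overlap, and severe asthma library 2 was the highest of all. Psmb8 averaged 3425 ± 206 in severe asthma and 2296 ± 223 in control (SD, n = 3 each) and rose (log2 fold change 0.58, SE 0.0896, adjusted p = 0.00382, limma).

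Psmb9, at chr17:34182030-34187330, encodes the inducible subunit that takes the caspase-like site and is read divergently from Tap1, a subunit of the peptide transporter. It had 1763, 1776 and 1623 adjusted reads in severe asthma libraries 1 to 3, against 986, 1225 and 1144 in control libraries 1 to 3. Again every severe asthma library was above every control library, and control library 1 was the lowest. Psmb9 averaged 1721 ± 84.9 in severe asthma and 1118 ± 122 in control (SD, n = 3 each) and had the largest change of the catalytic genes (log2 fold change 0.63, SE 0.0932, adjusted p = 0.00332, limma). Exons of Psmb9 and Tap1 share 212 bases on opposite strands, and no source used here says whether strand was kept, so reads there cannot be assigned to 1 of the 2 genes.

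Psmb10, whose product takes the trypsin-like site, had the smallest log2 fold change of the inducible subunits. It had 1545, 1796 and 1693 adjusted reads in severe asthma libraries 1 to 3, against 1187, 1371 and 1305 in control libraries 1 to 3. The groups did not overlap, with severe asthma library 1 nearest to the controls (log2 fold change 0.38, SE 0.0858, adjusted p = 0.0135, limma). This call was lost without severe asthma library 2, without severe asthma library 3, with equal totals and with no filter, whereas those of Psmb8 and Psmb9 held in all 13 alternatives run.

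Of the constitutive partners, Psmb7 encodes the trypsin-like subunit and had 1071, 1239 and 1171 adjusted reads in severe asthma libraries 1 to 3, against 719, 879 and 859 in control libraries 1 to 3. All severe asthma values stood above the controls, and control library 1 was the lowest (log2 fold change 0.50, SE 0.1, adjusted p = 0.00898, limma). Psmb6, the caspase-like subunit, had 1189, 1490.4 and 1191 adjusted reads in severe asthma libraries 1 to 3, against 1004, 1057 and 1051 in control libraries 1 to 3. Severe asthma library 2 stood apart from the other two severe asthma libraries, which lay nearer to the controls, and the call was close to the threshold (log2 fold change 0.31, SE 0.0994, adjusted p = 0.0453, limma) and lost in 10 of the 13 alternatives.

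Psmb5 encodes the chymotrypsin-like subunit that proteasome inhibitors used in medicine bind first. It had 809.7, 958 and 812 adjusted reads in severe asthma libraries 1 to 3, against 649, 741 and 725 in control libraries 1 to 3. The groups did not overlap, yet the gene missed the threshold (log2 fold change 0.28, SE 0.0968, adjusted p = 0.0534, limma), and passed it only with the replicate number as a block, at an adjusted p of 0.0288.

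**Figure D1:**
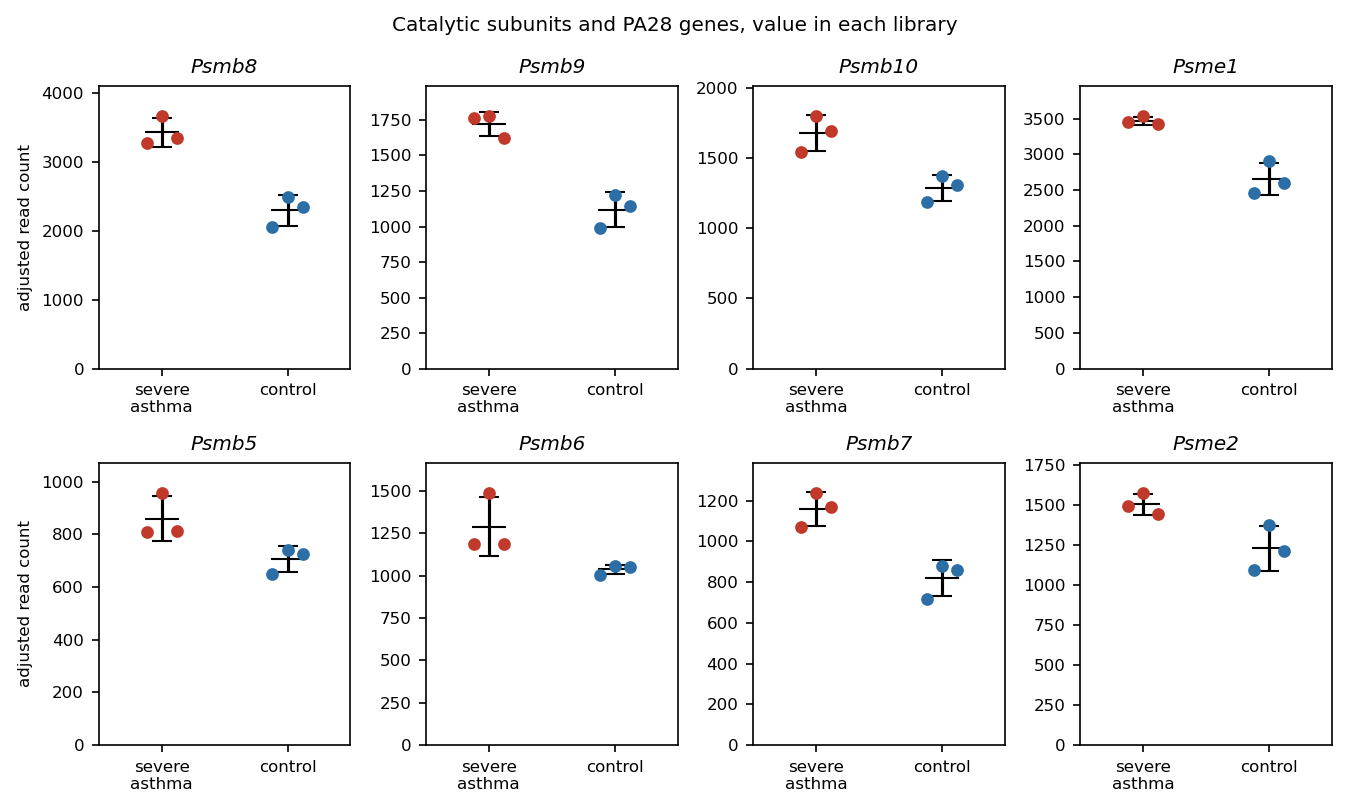
Adjusted reads (linear axis from 0) of the 3 inducible catalytic genes and Psme1 in the upper row and of the 3 constitutive catalytic genes and Psme2 in the lower row. Points are single libraries in replicate order, 3 of severe asthma on the left and 3 of control on the right, and bars give the mean ± SD; in all 8 panels the lowest severe asthma point is above the highest control point.

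The ratio of an inducible subunit to the constitutive one it replaces was higher in severe asthma for 2 pairs and lower for the third. Ratios were taken within each library, where the library's scaling cancels, as log2 of adjusted reads plus 1. Psmb8 over Psmb5 was 2.01, 1.93 and 2.04 in severe asthma libraries 1 to 3, against 1.66, 1.75 and 1.69 in control libraries 1 to 3. Psmb9 over Psmb6 was 0.57, 0.25 and 0.45 in severe asthma libraries 1 to 3, against -0.026, 0.21 and 0.12 in control libraries 1 to 3. In both pairs the ratio was higher in every severe asthma library than in any control, by 0.30 and 0.32 on average. The t-based 95% interval of the difference was 0.18 to 0.41 for Psmb8 over Psmb5. For Psmb9 over Psmb6 it was -2.08e-05 to 0.64, which includes 0.

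Psmb10 over Psmb7 was 0.53, 0.54 and 0.53 in severe asthma libraries 1 to 3, against 0.72, 0.64 and 0.60 in control libraries 1 to 3, a difference of -0.12 (t-based 95% interval -0.22 to -0.024), with no overlap. Each of the 3 differences had a two-sided exact permutation p of 0.1, the smallest that 3 against 3 libraries can give, and 0.1 after Benjamini-Hochberg adjustment over the 3 pairs, so this test could not take any of them past the threshold. The direction of each ratio was the same under the alternatives run on ratios, which did not include no filter, edgeR or DESeq2. Groups that do not overlap cannot change direction when a library is left out. As reads per kilobase of transcript, the inducible member made up 68.8% ± 0.86 of the Psmb8 and Psmb5 pair in severe asthma and 64.2% ± 0.69 in control, 44.2% ± 2.71 of the Psmb9 and Psmb6 pair in severe asthma and 38.8% ± 1.98 in control, and 56.1% ± 0.062 of the Psmb10 and Psmb7 pair in severe asthma and 58.2% ± 1.04 in control (SD, n = 3 each). The lengths used for Psmb9 and Psmb6 are those of another transcript of the same gene, so their share carries that uncertainty.

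**Figure D2:**
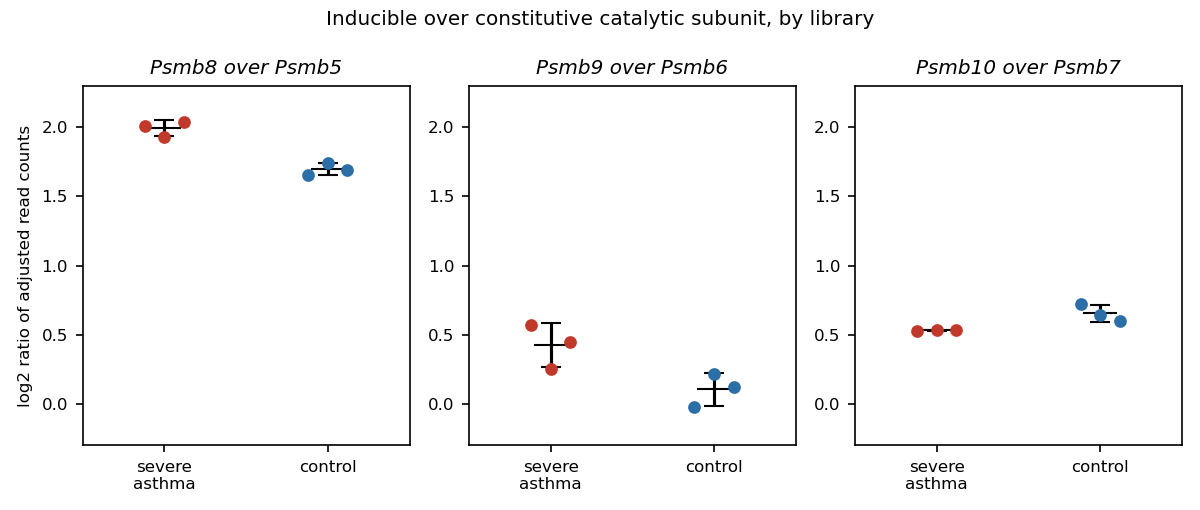
Log2 ratio of an inducible catalytic gene to the constitutive gene it replaces, in adjusted reads plus 1, by library: Psmb8 over Psmb5, Psmb9 over Psmb6 and Psmb10 over Psmb7. Points are libraries (severe asthma left, control right, 3 each) and bars the mean ± SD; severe asthma lies above control by 0.30 and 0.32 in the first and second panels and below it by 0.12 in the third.

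The inducible activator rose as well. Psme1, which encodes the alpha subunit of PA28, had 3449.7, 3533 and 3431 adjusted reads in severe asthma libraries 1 to 3, against 2465, 2903 and 2598 in control libraries 1 to 3. Severe asthma libraries lay close together and above all controls (log2 fold change 0.39, SE 0.0769, adjusted p = 0.00879, limma). Psme2, the beta subunit, separated from Psme1 by Emc9 on chromosome 14, had 1491, 1576 and 1445 adjusted reads in severe asthma libraries 1 to 3, against 1095, 1377 and 1214 in control libraries 1 to 3. Its groups did not overlap, with control library 2 nearest to severe asthma (log2 fold change 0.30, SE 0.0939, adjusted p = 0.0416, limma), but the call was lost in 10 of the 13 alternatives, including edgeR and DESeq2.

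Psme2b, a copy of Psme2 on chromosome 11, had 559.9, 452 and 569.5 adjusted reads in severe asthma libraries 1 to 3, against 506, 490.1 and 525 in control libraries 1 to 3. The groups overlapped, with severe asthma library 2 the lowest of all 6, and no change was detected (95% interval of the log2 fold change -0.20 to 0.30, adjusted p = 0.756, limma). Reads from near-identical copies can be split between Psme2 and Psme2b, so both values are uncertain.

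Psme3 encodes PA28 gamma, a nuclear activator that works without ubiquitin. It had 2124, 2113 and 2133 adjusted reads in severe asthma libraries 1 to 3, against 1536, 1978 and 1745 in control libraries 1 to 3. It passed narrowly (log2 fold change 0.28, SE 0.0947, adjusted p = 0.0495, limma), the control libraries being far more spread than those of severe asthma, and the call held in only 2 of the 13 alternatives. Psme4 encodes PA200, an activator known from DNA repair and sperm formation, and had 1697, 1731 and 1693 adjusted reads in severe asthma libraries 1 to 3, against 1413, 1572 and 1561 in control libraries 1 to 3. The groups did not overlap, but Psme4 missed the threshold (log2 fold change 0.17, SE 0.0686, adjusted p = 0.0836, limma).

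Within the core particle, 5 of the 7 alpha ring genes rose (median 0.33 on the log2 scale over the 7), against 20.7% of all genes tested. Psma6 changed most and had 1342, 1415 and 1284 adjusted reads in severe asthma libraries 1 to 3, against 839.6, 958 and 1010.4 in control libraries 1 to 3. Its groups lay well apart (log2 fold change 0.53, SE 0.0879, adjusted p = 0.00504, limma), and the call held in all 13 alternatives. Psma7, among the most abundant subunit genes per length, had 1677, 1839 and 1669.9 adjusted reads in severe asthma libraries 1 to 3, against 1267, 1350.3 and 1355 in control libraries 1 to 3. It too was higher in every severe asthma library (log2 fold change 0.38, SE 0.0706, adjusted p = 0.00704, limma).

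Psma5, Psma4 and Psma2 rose by 0.39, 0.33 and 0.31 on the log2 scale. Psma1, the alpha gene with the largest p, had 1432, 1664 and 1554 adjusted reads in severe asthma libraries 1 to 3, against 1137, 1425 and 1488 in control libraries 1 to 3. The groups overlapped, since control library 3 was above severe asthma library 1 (log2 fold change 0.21, 95% interval -0.05 to 0.47, adjusted p = 0.189, limma). Psma3 did not pass either (log2 fold change 0.23, adjusted p = 0.16, limma).

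All 4 structural genes of the beta ring, whose products hold the ring together but cut nothing, rose, with a median of 0.52. Of all genes tested, 20.7% rose. Psmb3 had 1215, 1429.7 and 1241 adjusted reads in severe asthma libraries 1 to 3, against 860.2, 943 and 898 in control libraries 1 to 3. The lowest severe asthma library exceeded the highest control by more than the whole range of the controls (log2 fold change 0.52, SE 0.0851, adjusted p = 0.0047, limma). Psmb4, whose product closes the assembled ring, had 1909, 2043 and 1837 adjusted reads in severe asthma libraries 1 to 3, against 1489, 1535 and 1516 in control libraries 1 to 3. Its control libraries were nearly level and all lower (log2 fold change 0.35, SE 0.0669, adjusted p = 0.00809, limma).

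Psmb1, the structural beta gene with the largest p, had 2502, 2964 and 2632 adjusted reads in severe asthma libraries 1 to 3, against 1647, 2042 and 1935 in control libraries 1 to 3. It had no overlap between groups (log2 fold change 0.53, SE 0.102, adjusted p = 0.00823, limma), and the remaining gene of this group, Psmb2, rose by 0.52. Over the 7 constitutive beta genes, catalytic ones included, 6 rose, against 20.7% of all genes tested.

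A pair of core subunits restricted to other tissues stayed near 0. Psma8, the alpha subunit of the sperm cell proteasome, had 1.09, 7.36 and 2.97 adjusted reads in severe asthma libraries 1 to 3, against 1.97, 1.00 and 0.00 in control libraries 1 to 3. These are too few reads for a comparison, and the gene did not pass (adjusted p = 0.224, limma). Psmb11, the thymus subunit, was the 1 gene of the 49 below the filter: it was listed at 0 in all 3 severe asthma libraries, and at 0 or under 0.001 in control libraries 1 and 2 and 2.83 in control library 3.

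**Figure D3:**
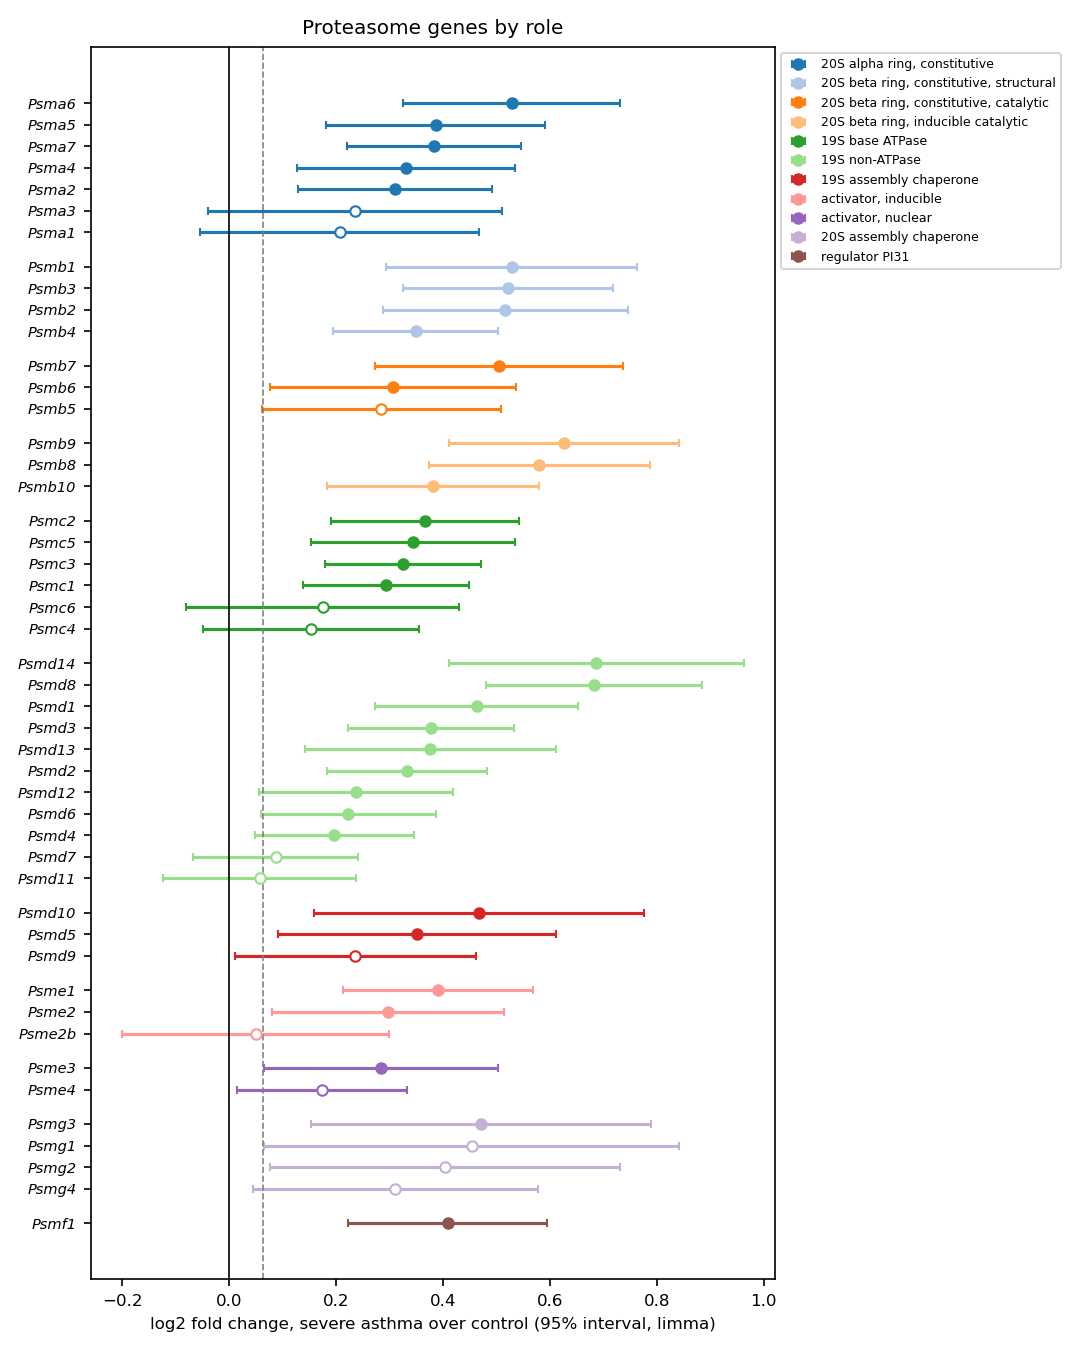
Log2 fold change, severe asthma over control, of 47 proteasome genes by role, with the 95% interval of limma; Psma8 and Psmb11, with values near 0, are left out. Filled points passed an adjusted p of 0.05 and open points did not, the solid line is 0 and the dashed line the median of all genes tested (0.06); every point is right of 0 on the deposited scaling (Psmd7, Psmd11 and Psme2b are left of it with equal totals) and the largest are Psmd14 (0.69) and Psmd8 (0.68).

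Of the 17 genes of the 19S cap, 13 rose and 0 fell, with a median log2 fold change of 0.32. Of all genes tested, 20.7% rose and 14.4% fell. In edgeR 10 of the 17 rose, against 16% of all genes. Of the 6 ATPase genes, 4 rose. Psmc3 had 1854, 2009 and 1890.1 adjusted reads in severe asthma libraries 1 to 3, against 1537, 1534 and 1520.1 in control libraries 1 to 3. The control libraries were almost level and all 3 severe asthma libraries exceeded them (log2 fold change 0.32, SE 0.0632, adjusted p = 0.00846, limma). Psmc2 had 1103, 1276 and 1219 adjusted reads in severe asthma libraries 1 to 3, against 931, 937 and 919 in control libraries 1 to 3. It showed the same tight controls (log2 fold change 0.37, SE 0.0759, adjusted p = 0.0104, limma).

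Psmc5 and Psmc1 rose by 0.34 and 0.29. Psmc6, the ATPase gene with the largest p, had 982, 1065 and 1039 adjusted reads in severe asthma libraries 1 to 3, against 769, 1011 and 972 in control libraries 1 to 3. Control library 1 alone was clearly lower, and the groups overlapped (log2 fold change 0.17, 95% interval -0.08 to 0.43, adjusted p = 0.251, limma). Psmc4 did not pass (log2 fold change 0.15, adjusted p = 0.208, limma).

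Of the 11 non-ATPase genes of the cap, 9 rose. Psmd8, a lid subunit, had the smallest p of all 48 genes. It had 2433, 2597 and 2433 adjusted reads in severe asthma libraries 1 to 3, against 1377, 1679 and 1610.3 in control libraries 1 to 3. The gap between the lowest severe asthma library and the highest control was wider than the range of either group (log2 fold change 0.68, SE 0.0875, adjusted p = 0.00197, limma). Psmd14 encodes the deubiquitinase that removes ubiquitin chains as the substrate enters. It had 1088, 1119.5 and 1155 adjusted reads in severe asthma libraries 1 to 3, against 573, 766 and 767 in control libraries 1 to 3. The severe asthma libraries were close together, while control library 1 was well below the other controls (log2 fold change 0.69, SE 0.119, adjusted p = 0.00581, limma).

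Psmd1 and Psmd2, the large scaffold subunits of the base, rose by 0.46 and 0.33, and Psmd4, a ubiquitin receptor, by 0.20, a call that held in 3 of the 13 alternatives. Among the other lid genes Psmd3, Psmd13, Psmd12 and Psmd6 rose by 0.38, 0.38, 0.24 and 0.22, of which Psmd12 passed in 4 of the 13 alternatives and Psmd6 in 2, and Psmd6 missed the threshold with the replicate block too (adjusted p = 0.0571). Psmd11, a lid subunit, had the largest p of the cap, with 1068, 1142 and 1086 adjusted reads in severe asthma libraries 1 to 3, against 969, 1110.2 and 1093 in control libraries 1 to 3. The groups overlapped (95% interval of the log2 fold change -0.12 to 0.24, adjusted p = 0.604, limma). Psmd7, which pairs with the product of Psmd14 in the lid, had all severe asthma libraries above the controls but a log2 fold change of only 0.09 (95% interval -0.07 to 0.24, adjusted p = 0.346, limma).

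**Figure D4:**
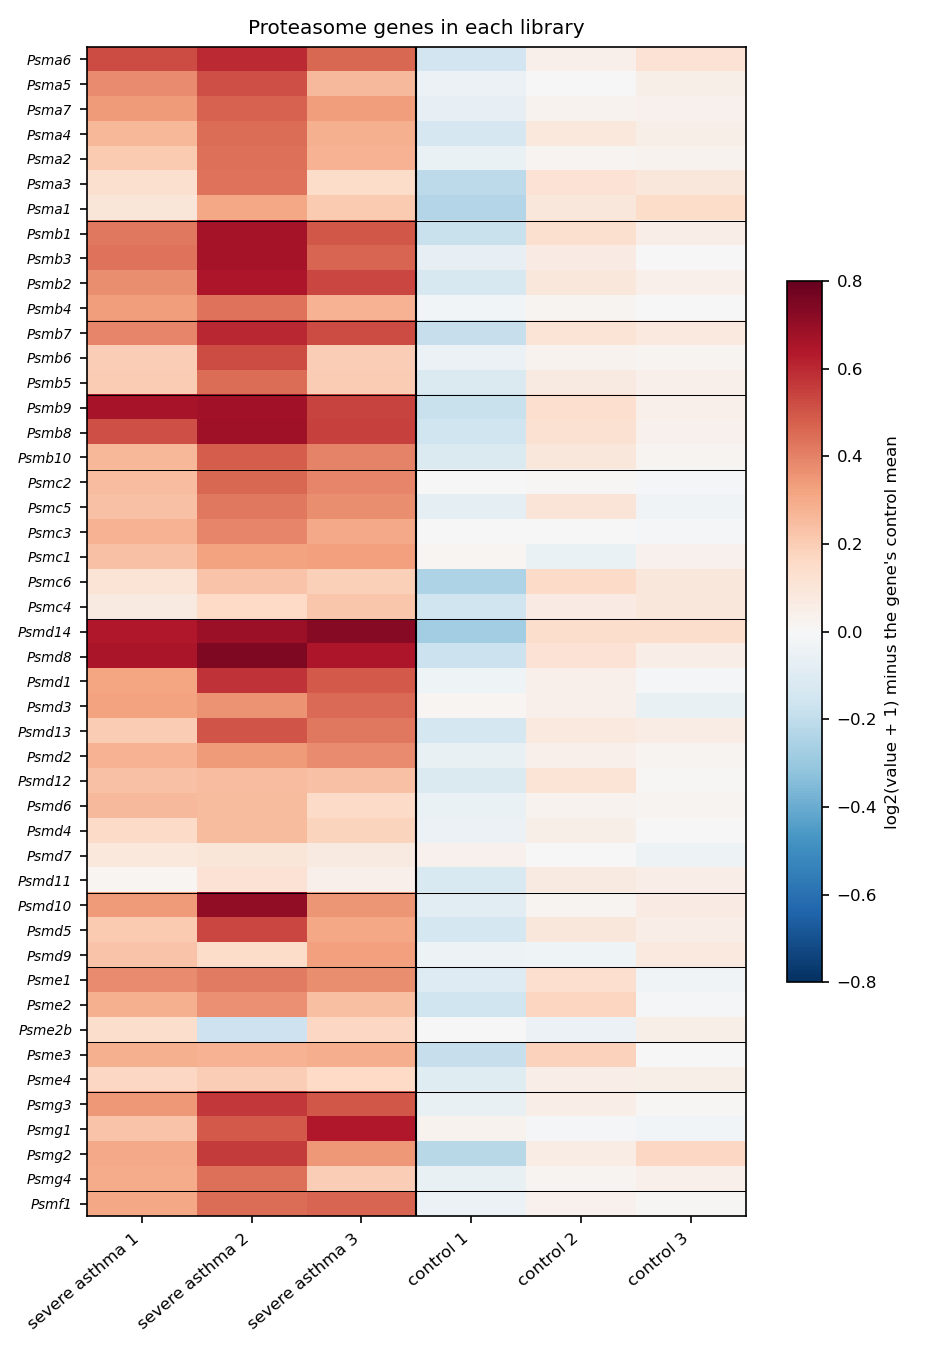
Value of 47 proteasome genes in each library, as log2(value + 1) minus the gene's control mean, with genes in rows by role and libraries in columns, severe asthma on the left; red is above and blue below the control mean. Severe asthma library 2 is the reddest column, being highest of its group for 37 of 48 genes tested, and control library 1 the bluest, being lowest of its group for 40.

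Of the 3 chaperones of the cap, 2 rose, against 20.7% of all genes tested, although 0 did so in edgeR. The calls of Psmd10 and Psmd5 held in 5 and 4 of the 13 alternatives. Psmd10, which encodes gankyrin, had 299, 386 and 302 adjusted reads in severe asthma libraries 1 to 3, against 221, 240.1 and 248 in control libraries 1 to 3. Severe asthma library 2 was well above the other two, and all 3 exceeded the controls (log2 fold change 0.47, SE 0.134, adjusted p = 0.03, limma). Psmd5 had 557, 700.4 and 598 adjusted reads in severe asthma libraries 1 to 3, against 437, 513 and 501 in control libraries 1 to 3. Its groups were closer but did not overlap (log2 fold change 0.35, SE 0.113, adjusted p = 0.0438, limma). Psmd9 had 386, 365 and 414 adjusted reads in severe asthma libraries 1 to 3, against 319.5, 321 and 347 in control libraries 1 to 3, and missed the threshold without overlap between groups (log2 fold change 0.24, SE 0.0974, adjusted p = 0.0952, limma).

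Of the 4 genes for the core's assembly chaperones, 1 rose, against 20.7% of all genes tested, and 0 did so in edgeR. Psmg3 had 183, 213 and 203 adjusted reads in severe asthma libraries 1 to 3, against 138, 149 and 144 in control libraries 1 to 3. Its severe asthma libraries were all higher (log2 fold change 0.47, SE 0.138, adjusted p = 0.0322, limma), but the call held in only 5 of the 13 alternatives. Psmg2 had 278, 333 and 287 adjusted reads in severe asthma libraries 1 to 3, against 193, 235 and 252 in control libraries 1 to 3. It did not overlap between groups and missed the threshold (log2 fold change 0.40, SE 0.142, adjusted p = 0.0584, limma), which it passed with the replicate block (adjusted p = 0.0444).

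Psmg4, with the largest p of the 4, had 276, 305 and 258 adjusted reads in severe asthma libraries 1 to 3, against 215, 228 and 231 in control libraries 1 to 3. It missed the threshold with no overlap (log2 fold change 0.31, SE 0.116, adjusted p = 0.07, limma), as did Psmg1 (log2 fold change 0.45, adjusted p = 0.069, limma). Psmf1 encodes PI31, known as a regulator and carrier of proteasomes. It had 656, 723 and 732 adjusted reads in severe asthma libraries 1 to 3, against 513, 542 and 533 in control libraries 1 to 3. All severe asthma values were above all controls (log2 fold change 0.41, SE 0.0806, adjusted p = 0.00878, limma), and the call held in all 13 alternatives.

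Levels differed widely between the genes of the complex. In adjusted reads per kilobase, Psme1 was highest, at 3122 ± 49.0 in severe asthma and 2388 ± 202 in control (SD, n = 3 each). Psmb8 followed in severe asthma, and in control Psma7 and Psmb8 followed with means that lay within 1 SD of each other: Psma7 had 1891 ± 105 in severe asthma and 1449 ± 54.2 in control, and Psmb8 2104 ± 126 in severe asthma and 1410.0 ± 137 in control. The core's constitutive catalytic genes ranged from 957 (Psmb5) to 1617 (Psmb6) in severe asthma, and from 706 (Psmb7) to 1299.8 (Psmb6) in control. At the low end, leaving aside Psma8 and Psmb11, stood Psmd5, with 141 ± 16.8 in severe asthma and 110.0 ± 9.22 in control, and next to it Psmd9 and Psmg1. Lengths were those of the kept transcript for 41 genes and of another transcript of the gene for the other 8.

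The libraries of a group differed in a way that most proteasome genes shared. Severe asthma library 2 was the highest of its group for 37 of the 48 genes, against 38.7% of all genes tested, and control library 1 the lowest of its group for 40 of the 48, against 43.2%. The 6 libraries held 16498219 to 18054903 rebuilt reads on the kept transcripts of the genes of the table.

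Markers of other cells also differed between the libraries. B cell markers (12 genes, all well above 0) summed to 220238 to 240325 adjusted reads in severe asthma and 155812 to 221527 in control, lowest in control library 1. Of these 12 markers 3 rose, Cd72, Cd22 and Cd79a, and 0 fell (median 0.20 on the log2 scale), and 1 rose in edgeR and 0 with equal totals. Of 14 monocyte and interstitial macrophage markers, 12 rose and none was at 0. Their sum was 95843 to 150790 in severe asthma, highest in library 2, and 11991 to 25794 in control. Alveolar macrophage markers rose for 6 of 10, with sums of 20706 to 81965 in severe asthma and 2259.5 to 8061 in control.

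All 7 endothelial markers fell. Their sum was 5241 to 7938 in severe asthma and 15618 to 42020 in control, highest in control library 1. Of 8 epithelial markers 7 fell, with sums of 4279.9 to 8833 in severe asthma and 21658 to 61599.8 in control, and of 7 fibroblast and smooth muscle markers 4 fell, with sums of 1204 to 2484 in severe asthma and 3387 to 11090.4 in control. Neutrophil markers (2 of 9 risen, 1 fallen), T cell markers (1 of 10 risen) and dendritic cell markers (2 of 9 risen, 2 fallen) were low, with sums of at most 3625 in severe asthma and 2464 in control. Over all genes tested, 20.7% rose and 14.4% fell. The cell cycle genes all rose, 17 of 17 (median 3.13 on the log2 scale), and so did 4 of 8 plasma cell genes, Jchain among them (log2 fold change 5.89, adjusted p = 0.00189, limma). The part of these cells and states in the proteasome result was not tested.

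Some of the genes that work with the proteasome rose too. Of 12 partner genes 5 rose and 0 fell, with a median of 0.23, and 4 rose in edgeR and 2 with equal totals. Of all genes tested, 20.7% rose, and 12.2% did so with equal totals. Whether this list or the pathway lists that follow differed from those shares was not tested, and their counts with equal totals are small. Pomp, the maturation factor of the core, had 1006, 1208 and 1018 adjusted reads in severe asthma libraries 1 to 3, against 625, 788 and 710.4 in control libraries 1 to 3, with no overlap (log2 fold change 0.61, SE 0.112, adjusted p = 0.00703, limma). Txnl1, a thioredoxin-like protein of the cap, had 888, 959.5 and 881 adjusted reads in severe asthma libraries 1 to 3, against 601, 687 and 616 in control libraries 1 to 3, also apart (log2 fold change 0.52, SE 0.0833, adjusted p = 0.0044, limma). Uchl5, a deubiquitinase of the cap, rose by 0.46.

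Of 6 genes for ubiquitin and its activating enzymes 3 rose and 0 fell, among them Rps27a, which encodes ubiquitin fused to a ribosomal protein, by 0.39 and Uba1, the main activating enzyme, by 0.26. Both of these calls were lost in edgeR and with equal totals, where 1 and 0 of the 6 rose. Of 11 genes for shuttle factors and the Vcp complex 5 rose, 4 in edgeR and 2 with equal totals. Vcp, the ATPase that extracts substrates for the proteasome, had 5814, 6122 and 6180.4 adjusted reads in severe asthma libraries 1 to 3, against 4512, 4473 and 4879 in control libraries 1 to 3, with no overlap (log2 fold change 0.39, SE 0.0693, adjusted p = 0.00644, limma). The shuttle gene Ubqln1 rose by 0.40.

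Of 15 genes for class I peptide loading and its regulators 9 rose and 0 fell, with a median of 0.26, and 6 rose in edgeR and 3 with equal totals. Tap1 and Tap2, the peptide transporter genes interleaved with Psmb9 and Psmb8 on chromosome 17, rose by 0.40 and 0.38. Pdia3, a chaperone of the loading complex, had 4833, 5174 and 5216 adjusted reads in severe asthma libraries 1 to 3, against 3304, 3474 and 3719 in control libraries 1 to 3, with the groups well apart (log2 fold change 0.54, SE 0.0732, adjusted p = 0.00234, limma). H2-D1, a class I heavy chain, rose by 0.38. Among the regulators, Irf1, an interferon-responsive factor, had a log2 fold change of -0.25 (adjusted p = 0.196, limma) and Nlrc5, a class I activator, of 0.16 (adjusted p = 0.285, limma), and neither passed. Irf1, Nlrc5, Tap1 and Nfe2l1 were singled out after their values were seen.

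Of 13 genes for the transcriptional control of proteasome genes 2 rose and 1 fell, with a median of 0.04, and 2 rose in edgeR and 1 with equal totals. The share risen was 15.4%, against 20.7% of all genes tested. That gap rests on 13 genes and was not tested. Nfe2l1 had a log2 fold change of -0.07 (adjusted p = 0.671, limma). Foxm1, a factor of dividing cells, had 454, 427 and 533 adjusted reads in severe asthma libraries 1 to 3, against 139.6, 190.0 and 185 in control libraries 1 to 3, with no overlap (log2 fold change 1.46, SE 0.155, adjusted p = 0.000976, limma). Ngly1, the enzyme that activates NRF1 by removing its sugars, rose by 0.34. Tcf7l1 fell (log2 fold change -2.59, adjusted p = 0.00826, limma) at low values, 8.97 ± 3.94 in severe asthma and 62.8 ± 36.0 in control (SD, n = 3 each), highest in control library 1 (102). A link of Foxm1 or Tcf7l1 to proteasome genes was not tested and is not shown by these data. The rise of Foxm1 and the fall of Tcf7l1 are therefore not results about the control of proteasome genes.

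**Figure D5:**
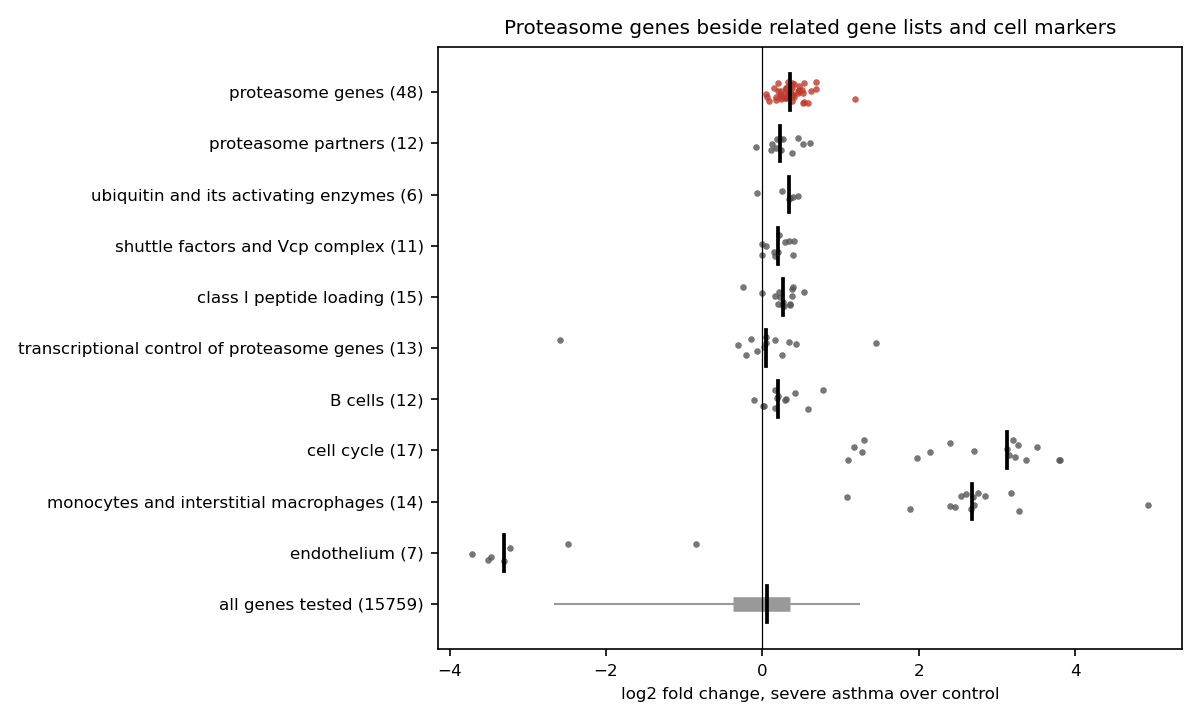
Log2 fold change, severe asthma over control, of the 48 proteasome genes tested and of the members of 9 other gene lists (number of genes in brackets), with each list's median as a black bar; the bottom row gives all 15759 genes tested, with the middle 50% as a thick line and the 5th to 95th percentile as a thin line. The proteasome genes, with a median of 0.35, sit in a narrow band above 0 apart from Psma8 (1.18, near 0 reads), while cell cycle genes (median 3.13), macrophage markers (2.68) and endothelial markers (-3.31) lie far out on either side.

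Some values rest on reads that could come from elsewhere. By the GENCODE annotation, exons of 13 of the 49 genes overlap those of another gene, by 7 to 253 bases, most on the opposite strand. Besides Psmb9 these include Psmb7 with Nek6 (253 bases) and Psmb8 with an antisense gene (117 bases). RefSeq also lists 6 pseudogenes named for Psma5, Psmb5, Psmb6 and Psmb7, so reads of those genes may be shared with them.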

How the data were processed

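RNA sequencing of 3 severe asthma and 3 control libraries of lung B cells was used. Libraries came from polyadenylated RNA and a NEBNext Ultra kit, as the labels' protocols state. Tools named in the submitters' processing notes are HTSeq 0.11.2, HISAT2 2.1.0 and bcl2fastq, and the build named there is mm10. The deposited mRNA table holds, per the file headers, a library-size-adjusted signal per transcript and library, the authors' log2 fold change and the authors' p-value and q-value. The authors' test is not given in the sources used here. All 440735 values above 0, over 84748 transcripts, were rebuilt to within 0.001 from whole reads by edgeR's quantile adjustment with a dispersion of 0.0474 (100% whole reads), so the signal is a read count brought to 1 common library size. Totals over the kept transcripts still differed between libraries, from 16176600 to 18444300.

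For each gene the transcript of the highest mean was kept. limma-trend 3.58.1 (R 4.3.3) with robust empirical Bayes was fitted to log2(value + 1) of the 15759 genes with a mean of at least 1, two-sided, with Benjamini-Hochberg adjustment and a threshold of 0.05. Fold changes on this scale understate the change of low genes. Alternatives were a pseudocount of 5, no filter, each library left out, the replicate number as a block, equal library totals, the mean over transcripts, and edgeR 4.0.16 and DESeq2 1.42.0 on the rebuilt reads. The test was tried on simulated data before use. Library pairs within a group differed beyond counting noise (chi-square per degree of freedom 8.65 to 57.9), so none was counted as the same library sequenced again. This check cannot tell whether the libraries came from separate animals, since separate preparations of the same cells can also differ beyond counting noise.

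Same-numbered libraries deviated together from their group means (correlations over genes 0.414, 0.128 and 0.14), although severe asthma 2 with control 3 and severe asthma 3 with control 2 also correlated (0.2 and 0.179), and the labels do not say what a number marks. The genes, roles and lists were chosen with earlier results of these data known. Every proteasome gene is accounted for. Values per library are given for the catalytic genes, Psme1 and Psme2, and in each other role for the 2 genes of smallest p and the 1 of largest p. Of the other pathway lists up to 3 genes of smallest p are named, and some results are not reported here. Transcript lengths and exon overlaps come from GENCODE, pseudogenes from RefSeq, and promoters from RefSeq (GRCm38.p6). Protein sequences were not used here.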

Additional observations from a re-analysis of the deposited data

How the results depend on the processing

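The directions of the 3 catalytic ratios were the same in each alternative run on them, which did not include no filter, edgeR or DESeq2. With each library left out the differences were 0.27 to 0.33 for Psmb8 over Psmb5, 0.25 to 0.40 for Psmb9 over Psmb6 and -0.15 to -0.089 for Psmb10 over Psmb7. Groups that do not overlap cannot change direction when a library is left out. Equal totals cancel within a library apart from the pseudocount, so these fits could not reverse a ratio. The number of risen proteasome genes, 34, was 13 with no filter on low values, 17 with equal library totals and 17 to 30 with each library left out, and 0 fell in any alternative. Over all genes, 3262 rose and 2263 fell, against 1312 and 387 with no filter, 1922 and 3102 with equal totals, and 1575 to 3401 and 728 to 2335 with each library left out. The genes that passed under each alternative were among the 34, except Psmb5 and Psmg2 with the replicate block. With that block 35 proteasome genes rose, as did 22.4% of all genes tested. In that paired fit the log2 fold changes of Psmb5 (0.28) and Psmg2 (0.40) passed and that of Psmd6 (0.22) did not. No other proteasome call changed. The mean ratio differences, 0.30, 0.32 and -0.12, are the same with the block by construction. A total of 11 proteasome genes passed in all 13 alternatives, and the share of all genes that did so is not given here. The cause of the lost calls was not tested. Signs reversed for Psmd11 (-0.0045 to 0.0933 with each library left out, negative without control library 1, -0.0886 with equal totals, -0.0082 in edgeR, -0.0342 in DESeq2), Psmd7 (-0.0592 with equal totals, -0.0041 in DESeq2) and Psme2b (-0.0103 to 0.156 with each library left out, negative without severe asthma library 3, -0.0962 with equal totals, -0.0056 in edgeR, -0.0324 in DESeq2), none of which passed in any fit. Depth limits Psma8 and Psmb11, which hold too few reads for a comparison.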
